A study of Mus musculus with 87 samples.

Results

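Kidneys sampled at postnatal day 1 (P1) from mice labelled pIR were compared with those labelled pWT. The comparison took the raw gene counts of the kidney columns pIR replicates 1 and 2 and pWT replicates 1 to 3, which are 5 of the 87 libraries of the series. The series is RNA sequencing of mouse androgenetic haploid embryonic stem cells of several Dnmt genotypes and of embryos and tissues from semi-cloned mice, in which such a haploid cell takes the place of a sperm. Its title describes viable animals derived from haploid cells that lack DNA methylation. The labels give these 5 kidneys the genotype pWT (n = 3) or pIR (n = 2) and no strain, allele list, sex, litter or number of animals per library. What pIR stands for and what the p in these names marks are not given in the sources used here. Nothing says that the libraries came from separate animals, so each p value measures the spread between these libraries, which may be technical. Further libraries are set beside the comparison. These are heart, liver and lung of pIR (n = 2 each) and pWT (n = 3 each) at the same age, and kidney of pTKO and pWT (n = 2 each) before birth, at the stage labelled E185.

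The kidney filters blood in glomeruli, whose podocytes hold back protein, and then recovers most of the filtrate in the proximal tubule. The loop of Henle, the distal convoluted tubule and the collecting duct adjust salt, water and acid. In the newborn mouse new nephrons are still being formed at the outer rim from progenitors that surround the tips of the branching ureteric bud, while tubules formed earlier gain their transporters and enzymes. Around birth tubular transport rises and the newborn begins to burn fat.

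The libraries held between 16.2 and 18.3 M (mega) counts, and levels are given as CPM, counts per M of a library's total. Values follow the order pWT 1, 2 and 3, then pIR 1 and 2. Where groups are said not to overlap, this describes the printed values and adds no support to a call. The share of all tested genes without overlap is not given here. Kidney markers were present in all 5: Umod, the urinary protein of the loop of Henle, stood at 232, 440.0 and 205 CPM in pWT and 333 and 326 CPM in pIR. Xist stood at 792.2, 635.6 and 631.5 CPM in pWT and 430.7 and 609.4 CPM in pIR. The Y-linked genes Ddx3y, Eif2s3y, Kdm5d and Uty stood at 0.176 CPM or less in all 5, so the kidneys read as female. The libraries of a group did not match closely. A chi-square over genes between libraries of 1 group, divided by its degrees of freedom, was 9.31 to 19.3, and on the leading principal component (66.1% of the variance) pWT 2 lay at -53.3, pWT 1 at -29.7 and pWT 3 at -6.84, against 48.5 and 41.3 for pIR 1 and 2. pWT 2 was thus the farthest from pIR and pWT 3 the nearest. Markers of hepatocytes also differed between libraries. The 14 hepatocyte genes summed to 145, 122 and 335 CPM in pWT and to 385 and 463 CPM in pIR, and Alb, the serum albumin gene, stood at 2.84, 1.29 and 58.9 CPM in pWT and 62.9 and 73.8 CPM in pIR.

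Of 16234 genes tested, 1727 (10.6%) differed at an adjusted p under 0.05 in edgeR's quasi-likelihood test. In pIR kidneys 1230 genes rose (7.58%) and 497 fell (3.06%), and the median log2 fold change of all tested genes was -0.009. The calls depended on single libraries: without pWT 1 there were 150, without pWT 2 1089, without pWT 3 2219, without pIR 1 348 and without pIR 2 1777, of which 891 rose. Calls that held in all 5 of these fits numbered 132, of which 126 rose. The sign of the 1727 was steadier and was kept by at least 1726 of them whichever library was left out.

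Genes of the proximal tubule gave the plainest difference. All 36 genes of the list passed the filter on low counts, 33 rose, 0 fell, and the median log2 fold change was 2.04 against -0.009 over all genes. Their summed level was 2111, 1310 and 2758 CPM in pWT and 7665 and 8590 CPM in pIR, so the groups did not overlap. Miox, the kidney's myo-inositol oxygenase (chromosome 15, 89334398 to 89337015), stood at 2.41, 2.34 and 4.59 CPM in pWT and 109.6 and 112 CPM in pIR. It was 36.5-fold higher in pIR (log2 fold change 5.19 ± 0.25, edgeR adjusted p = 0.000409), held its call without any 1 library, and was the largest rise among the genes at 5 CPM or more. The 3 members that did not pass were Slc5a12, Aqp1 and Keg1. Slc5a12, a lactate carrier, stood at 9.07, 1.46 and 5.03 CPM in pWT and 9.71 and 19.5 CPM in pIR (log2 fold change 1.55 ± 0.58, edgeR adjusted p = 0.119). Aqp1, the water channel of the proximal tubule and thin limb, stood at 371, 459 and 257 CPM in pWT and 393 and 394 CPM in pIR (log2 fold change 0.17 ± 0.21, edgeR adjusted p = 0.633), with the pIR values inside the range of pWT, and Keg1 at 58.3, 26.5 and 73.1 CPM in pWT and 78.9 and 101 CPM in pIR (log2 fold change 0.83 ± 0.34, edgeR adjusted p = 0.153).

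**Figure D1:**
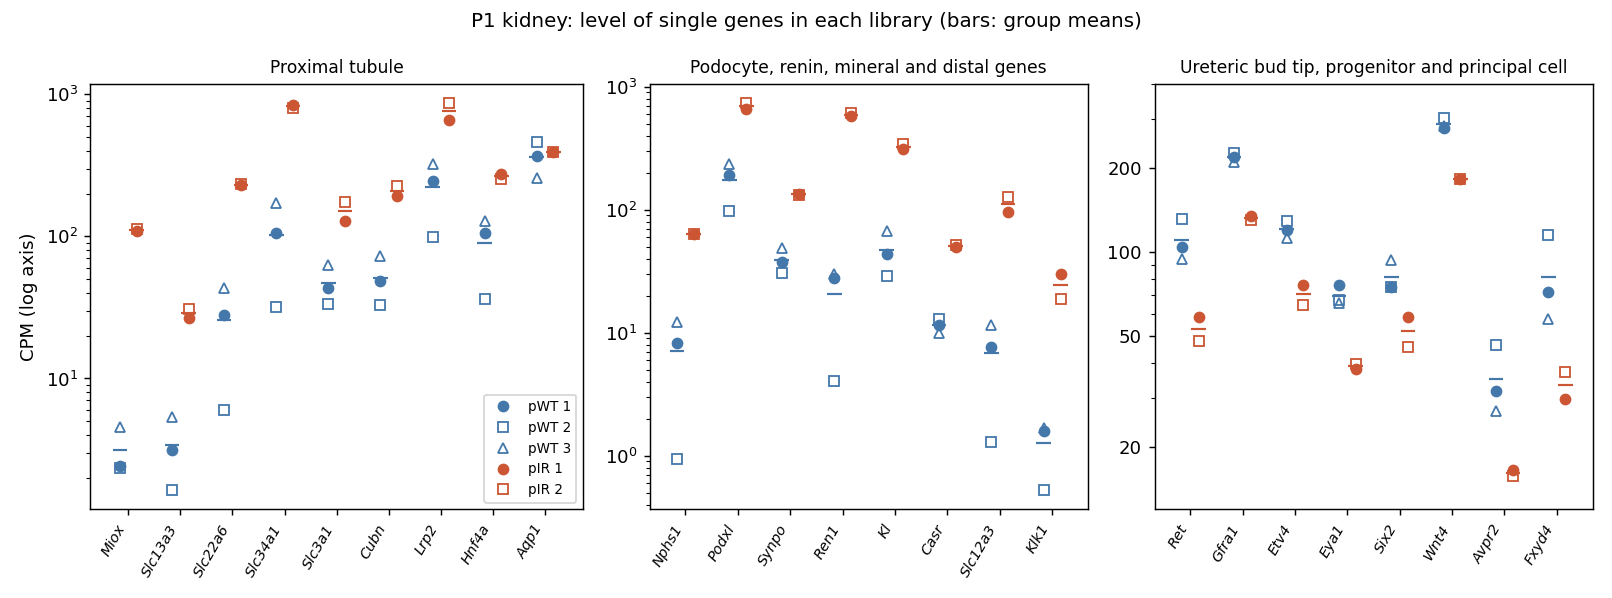
Level of single genes in each P1 kidney library as CPM on a log axis, with blue for pWT and red for pIR and a bar at each group's mean. Miox stands at 109.6 and 112 CPM in pIR against at most 4.59 CPM in pWT, Aqp1 overlaps between the groups, and Ret and Gfra1 lie lower in pIR.

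Transporters on both faces of the proximal tubule cell were among the genes that rose. Slc13a3, a carrier of dicarboxylates (chromosome 2, 165405028 to 165473230), stood at 3.15, 1.64 and 5.36 CPM in pWT and 26.8 and 30.8 CPM in pIR (log2 fold change 3.13 ± 0.36, edgeR adjusted p = 0.00566). Slc7a8 and Slc7a7, amino acid exchangers, stood at 49.2, 58.1 and 54.6 CPM in pWT and 137 and 116 CPM in pIR and at 18.4, 11.5 and 17.5 CPM in pWT and 53.8 and 61.5 CPM in pIR (log2 fold change 1.27 ± 0.12, edgeR adjusted p = 0.00335; log2 fold change 1.92 ± 0.19, edgeR adjusted p = 0.00362). Slc6a19, which takes up neutral amino acids from the filtrate, stood at 4.69, 4.16 and 5.19 CPM in pWT and 15.1 and 17.4 CPM in pIR (log2 fold change 1.84 ± 0.19, edgeR adjusted p = 0.00362). None of these 4 lost its call without any 1 library. Cubn and Lrp2 encode cubilin and megalin, the receptors that take up filtered protein. Cubn stood at 48.8, 32.8 and 72.2 CPM in pWT and 193 and 225 CPM in pIR (log2 fold change 2.08 ± 0.27, edgeR adjusted p = 0.00681) and Lrp2 at 244, 98.8 and 321 CPM in pWT and 660.2 and 869 CPM in pIR (log2 fold change 1.84 ± 0.39, edgeR adjusted p = 0.0276). The phosphate carrier Slc34a1 (chromosome 13, 55398187 to 55415592) stood at 106, 31.6 and 172 CPM in pWT and 846 and 807 CPM in pIR (log2 fold change 3.06 ± 0.53, edgeR adjusted p = 0.0156), and the organic anion carrier Slc22a6 (chromosome 19, 8618039 to 8628299) at 28.1, 6.03 and 43.6 CPM in pWT and 228 and 234 CPM in pIR (log2 fold change 3.21 ± 0.57, edgeR adjusted p = 0.0169). In both, pWT 2 was the lowest library and pWT 3 the highest of pWT. Slc3a1, a subunit of the cystine carrier (chromosome 17, 85028376 to 85064236), stood at 43.5, 33.2 and 63.4 CPM in pWT and 129 and 173 CPM in pIR (log2 fold change 1.74 ± 0.25, edgeR adjusted p = 0.00872).

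The nuclear factor Hnf4a, which drives proximal tubule genes, rose as well and stood at 105, 36.0 and 127 CPM in pWT and 275 and 253 CPM in pIR (log2 fold change 1.61 ± 0.41, edgeR adjusted p = 0.0445). Some of these calls were lost with a library left out, with the edgeR adjusted p in brackets here and in later paragraphs: Slc34a1 without pWT 1 (0.0746) or pIR 1 (0.0789), Slc22a6 without pWT 1 (0.0777) or pIR 1 (0.0789), Slc3a1 without pWT 1 (0.0529), Lrp2 without pWT 1 (0.0955), pIR 1 (0.0956) or pIR 2 (0.082) and Hnf4a without pWT 1 (0.116), pIR 1 (0.187) or pIR 2 (0.09). Over the list, 10 genes were called as higher without pWT 1, 32 without pWT 2, 34 without pWT 3, 14 without pIR 1 and 21 without pIR 2. In these bulk samples more cells of a type and more RNA per cell cannot be told apart.

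Proximal tubule promoters are shown here because the members rose together and because they differ in CpG content from most genes. Of the 36 genes 30 had a promoter window in RefSeq (GRCm38.p6, 250 bases before to 50 after the start). Their windows held a median of 6 CpG dinucleotides, against 21 over the windows of 12546 tested genes, 17 over those of 927 genes that rose and 20 over those of 368 that fell. The motif GTTAAT, searched on either strand, was present in 10 of the 30 windows (33.3%), in 5.95% of the windows of all tested genes and in 10.9% of those of the genes that rose. The HNF4 motif searched, CAAAGTCCA on either strand, was present in 2 of the 30 (6.67%) and in 0.542% of all. The motifs do not overlap with each other, and no printed stretch holds both. In the stretches below, 150 bases of the upstream side written 5′ to 3′ on the gene's own strand, capitals mark a match to either motif.
Miox (chromosome 15, 89334248 to 89334397, + strand): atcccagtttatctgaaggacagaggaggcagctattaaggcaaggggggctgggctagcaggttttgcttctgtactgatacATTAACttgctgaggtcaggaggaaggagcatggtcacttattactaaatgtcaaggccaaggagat
Slc34a1 (chromosome 13, 55399498 to 55399647, + strand): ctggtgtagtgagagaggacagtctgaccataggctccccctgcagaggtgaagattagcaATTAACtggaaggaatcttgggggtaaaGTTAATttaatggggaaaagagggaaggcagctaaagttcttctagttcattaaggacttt
Slc22a6 (chromosome 19, 8617846 to 8617995, + strand): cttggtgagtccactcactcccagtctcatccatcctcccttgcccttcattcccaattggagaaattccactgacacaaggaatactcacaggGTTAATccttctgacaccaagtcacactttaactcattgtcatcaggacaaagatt
Slc3a1 (chromosome 17, 85028197 to 85028346, + strand): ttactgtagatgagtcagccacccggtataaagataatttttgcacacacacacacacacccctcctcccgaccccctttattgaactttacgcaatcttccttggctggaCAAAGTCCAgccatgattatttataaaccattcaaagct
Slc13a3 (chromosome 2, 165473231 to 165473380, - strand): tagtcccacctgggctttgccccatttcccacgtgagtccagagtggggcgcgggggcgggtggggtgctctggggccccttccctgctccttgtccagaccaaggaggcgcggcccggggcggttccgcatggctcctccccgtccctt
Slc34a1 and Slc22a6 had 2 CpG in the whole window, Miox 6 and Slc3a1 7. Slc13a3, shown as a contrast, had 22 CpG and no match, and its call held without any 1 library as that of Miox did. The stretch of Slc34a1 lies in an intron of a longer GENCODE transcript. A match describes letters only, and no binding or methylation was measured here.

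Enzymes that make glucose and handle amino acids rose with the transporters. Of 22 genes tested 11 rose and 1 fell, with a median log2 fold change of 1.57. Pcx, pyruvate carboxylase, stood at 39.7, 31.9 and 54.5 CPM in pWT and 184.8 and 251 CPM in pIR (log2 fold change 2.42 ± 0.22, edgeR adjusted p = 0.00335), and G6pc, the phosphatase that releases glucose, at 7.89, 1.76 and 6.67 CPM in pWT and 45.5 and 54.7 CPM in pIR (log2 fold change 3.26 ± 0.44, edgeR adjusted p = 0.00755). Ass1, argininosuccinate synthase of arginine synthesis, stood at 58.3, 37.7 and 72.4 CPM in pWT and 374 and 463 CPM in pIR (log2 fold change 2.95 ± 0.24, edgeR adjusted p = 0.00335). Its counts equalled those of the predicted gene Gm5424 in all 5 kidney libraries, so these cannot be told apart. Gatm, which makes the creatine precursor guanidinoacetate, and Dmgdh, dimethylglycine dehydrogenase, differed by 2.84 ± 0.37 and 2.29 ± 0.29 on the log2 scale, with edgeR adjusted p of 0.00681 and 0.00679. All 5 kept their calls without any 1 library, and in each the pIR libraries lay above all pWT libraries. The gene that fell was Prodh, proline dehydrogenase (log2 fold change -0.55 ± 0.12, edgeR adjusted p = 0.0306), whose call was lost without pWT 1 (0.133), pWT 2 (0.066), pIR 1 (0.102) or pIR 2 (0.0609). Without pWT 1 the list had 6 genes called as higher.

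Only 5 of these 22 genes, and 18 of the 36 proximal tubule genes, were highest in kidney among the 4 pWT tissues. The hepatocyte list, whose summed level was also above that of every pWT library in pIR, bears on them. Its 14 genes had a median log2 fold change of 1.47, all above 0, with 1 called, Afp (log2 fold change 0.92 ± 0.12, edgeR adjusted p = 0.00747). Without pWT 3, the library with the highest hepatocyte sum in pWT, 13 were called as higher. Alb in pIR stood at 62.9 and 73.8 CPM, with its pWT values given above. How Alb compares with Pcx, Ass1 and Gatm in liver is not given here, so its level does not measure a hepatocyte part of their rises. The part of hepatocyte RNA in these results was not tested.

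Fatty acid oxidation genes rose by less. Of 27 tested, 15 rose and 0 fell, and the median log2 fold change was 0.64. Cpt2 and Cpt1a carry fatty acids into mitochondria. Cpt2 stood at 43.3, 46.1 and 46.1 CPM in pWT and 98.4 and 93.4 CPM in pIR (log2 fold change 1.13 ± 0.10, edgeR adjusted p = 0.00335) and Cpt1a at 216, 231 and 236 CPM in pWT and 379 and 382 CPM in pIR (log2 fold change 0.79 ± 0.095, edgeR adjusted p = 0.00587). Angptl4, a secreted inhibitor of lipoprotein lipase, stood at 28.6, 32.7 and 25.7 CPM in pWT and 76.5 and 68.5 CPM in pIR (log2 fold change 1.37 ± 0.14, edgeR adjusted p = 0.00335). Hadha of the mitochondrial trifunctional enzyme stood at 228, 237 and 233 CPM in pWT and 354 and 347 CPM in pIR (log2 fold change 0.64 ± 0.091, edgeR adjusted p = 0.00892). Ppara, the receptor that drives many of these genes, stood at 9.99, 8.37 and 9.73 CPM in pWT and 15.2 and 16.6 CPM in pIR (log2 fold change 0.81 ± 0.16, edgeR adjusted p = 0.0236). In each of these 5 genes the groups did not overlap. Calls were lost for Cpt1a without pWT 1 (0.0513), Hadha without pWT 1 (0.067) and Ppara without pWT 1 (0.0903), pIR 1 (0.0903) or pIR 2 (0.0676). Over the list, 2 genes were called as higher without pWT 1 and 8 without pIR 2. Nuclear genes of the respiratory chain had 3 of 32 higher (9.38%, against 7.58% of all genes), 0 lower and a median of 0.13.

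Podocyte genes were higher in pIR, but not all of them. Of 18 tested 11 rose and 0 fell (median log2 fold change 1.54). Nphs1 encodes nephrin of the slit diaphragm (chromosome 7, 30458315 to 30487223) and stood at 8.20, 0.937 and 12.1 CPM in pWT and 63.0 and 63.9 CPM in pIR (log2 fold change 3.21 ± 0.62, edgeR adjusted p = 0.0214), and the antisense transcript Nphs1os at 0.740, 0.0585 and 0.929 CPM in pWT and 12.7 and 9.57 CPM in pIR (log2 fold change 4.30 ± 0.53, edgeR adjusted p = 0.00631). Whether strand was used in counting is not stated, so reads of this pair may not be told apart. Podxl, podocalyxin of the cell coat, stood at 192, 97.4 and 233 CPM in pWT and 653 and 736 CPM in pIR (log2 fold change 2.05 ± 0.30, edgeR adjusted p = 0.0094), and Synpo, an actin regulator of foot processes, at 37.6, 30.7 and 48.7 CPM in pWT and 135 and 132 CPM in pIR (log2 fold change 1.82 ± 0.17, edgeR adjusted p = 0.00335). Mapt and Magi2 differed by 1.97 ± 0.25 and 1.5 ± 0.22 on the log2 scale, with edgeR adjusted p of 0.00634 and 0.00935. Wt1, which is expressed in nephron progenitors as well as podocytes, stood at 194, 128 and 229.7 CPM in pWT and 192 and 188 CPM in pIR (log2 fold change 0.10 ± 0.21, edgeR adjusted p = 0.786) and overlapped between the groups. Left-out libraries ended the call of Nphs1 without pWT 1 (0.0878), pIR 1 (0.1) or pIR 2 (0.0536), Podxl without pWT 1 (0.052) and Magi2 without pWT 1 (0.0541). Over the list 2 genes were called as higher without pWT 1 and 4 without pIR 1.

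Genes of blood pressure control included one of the largest rises. Ren1 encodes renin, the protease that starts the angiotensin cascade (chromosome 1, 133350510 to 133360325). It stood at 27.9, 4.04 and 30.1 CPM in pWT and 574 and 609.9 CPM in pIR and was 29.7-fold higher (log2 fold change 4.89 ± 0.62, edgeR adjusted p = 0.0066). Its counts equalled those of Ren2 in 4 of the 5 kidney libraries and differed by 1 count in pIR 2, so the value belongs to the pair. Ace, which makes angiotensin II, stood at 44.0, 40.6 and 70.7 CPM in pWT and 243 and 219.7 CPM in pIR (log2 fold change 2.21 ± 0.21, edgeR adjusted p = 0.00335). Anpep and Enpep, the aminopeptidases that break it down, stood at 266, 175 and 337 CPM in pWT and 1112 and 819 CPM in pIR and at 125, 82.7 and 153 CPM in pWT and 307 and 391 CPM in pIR (log2 fold change 1.95 ± 0.24, edgeR adjusted p = 0.00631; log2 fold change 1.59 ± 0.23, edgeR adjusted p = 0.0094). Of 17 genes in the list 7 rose and 0 fell, while the median was 0.36, and Agt, Mme, Edn1 and the other 7 did not pass. Enpep lost its call without pWT 1 (0.0529). In all 4 genes every pIR library lay above every pWT library. The list had 4 genes called as higher without pWT 1, and Ren1, Ace, Anpep and Kl kept their calls without any 1 library.

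Genes of phosphate, calcium and vitamin D handling rose together with these. Of 16 tested 10 rose and 0 fell (median log2 fold change 1.27). Kl, the co-receptor for the phosphate hormone FGF23, stood at 43.4, 29.0 and 67.7 CPM in pWT and 312 and 339.5 CPM in pIR (log2 fold change 2.85 ± 0.29, edgeR adjusted p = 0.00348). Casr, the calcium-sensing receptor, stood at 11.5, 12.9 and 9.95 CPM in pWT and 49.3 and 51.3 CPM in pIR (log2 fold change 2.18 ± 0.15, edgeR adjusted p = 0.00181), and Pth1r, the receptor of parathyroid hormone, at 63.6, 49.5 and 84.7 CPM in pWT and 238 and 266 CPM in pIR (log2 fold change 1.99 ± 0.19, edgeR adjusted p = 0.00335). Both enzymes of vitamin D turnover were higher. Cyp24a1, which inactivates the hormone, stood at 11, 2.63 and 11.7 CPM in pWT and 73.2 and 82.5 CPM in pIR (log2 fold change 3.25 ± 0.45, edgeR adjusted p = 0.00859), and Cyp27b1, which makes it, at 18.4, 2.99 and 6.83 CPM in pWT and 77.4 and 40.7 CPM in pIR (log2 fold change 2.71 ± 0.58, edgeR adjusted p = 0.0284). The vitamin D receptor Vdr stood at 37.9, 30.9 and 47.3 CPM in pWT and 82.6 and 89.0 CPM in pIR (log2 fold change 1.2 ± 0.17, edgeR adjusted p = 0.00859). Not called with a library left out were Cyp27b1 without pIR 1 (0.172) and Vdr without pWT 1 (0.0529). Without pWT 1 or without pIR 1 the list had 5 genes called as higher.

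Segments beyond the proximal tubule differed in part. In the distal convoluted tubule 7 of 12 genes rose and 0 fell (median 0.76). Slc12a3, the sodium chloride carrier blocked by thiazides (chromosome 8, 94329201 to 94366214), stood at 7.71, 1.29 and 11.6 CPM in pWT and 96.6 and 128 CPM in pIR (log2 fold change 4.08 ± 0.57, edgeR adjusted p = 0.00859). Klk1, tissue kallikrein, stood at 1.6, 0.527 and 1.69 CPM in pWT and 29.9 and 18.8 CPM in pIR (log2 fold change 4.29 ± 0.38, edgeR adjusted p = 0.00335), and the kinase gene Wnk1 at 260.4, 228 and 239 CPM in pWT and 376 and 417 CPM in pIR (log2 fold change 0.76 ± 0.11, edgeR adjusted p = 0.0086). Slc12a3 lost its call without pWT 1 (0.0529) and Wnk1 without pWT 1 (0.0511). In the loop of Henle 6 of 15 genes rose (median 0.50). Bsnd, the subunit barttin of chloride channels, stood at 32.4, 35.7 and 31.0 CPM in pWT and 69.9 and 63.8 CPM in pIR (log2 fold change 1.06 ± 0.12, edgeR adjusted p = 0.00522) and kept its call without any 1 library. Slc12a1, the carrier blocked by loop diuretics, stood at 394, 534 and 269 CPM in pWT and 509 and 718 CPM in pIR (log2 fold change 0.67 ± 0.27, edgeR adjusted p = 0.144), and it overlapped between the groups as Umod did (log2 fold change 0.21 ± 0.30, edgeR adjusted p = 0.655). Counts called as higher fell to 1 in the distal list without pWT 1 and to 2 in the loop list without pIR 1.

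The cells of the collecting duct moved apart from each other. Among 14 intercalated cell genes 5 rose and 0 fell (median 0.48). Slc26a4, the chloride and bicarbonate exchanger pendrin, stood at 3.08, 3.28 and 2.62 CPM in pWT and 8.79 and 12.5 CPM in pIR (log2 fold change 1.88 ± 0.24, edgeR adjusted p = 0.00681), and Atp6v0a4, a subunit of the proton pump, at 57.0, 52.6 and 54.0 CPM in pWT and 96.5 and 122 CPM in pIR (log2 fold change 1.05 ± 0.13, edgeR adjusted p = 0.00587). Among 14 principal cell genes 0 rose and 4 fell (median -0.59). Avpr2, the vasopressin receptor that controls water recovery, stood at 31.8, 46.4 and 27.0 CPM in pWT and 16.6 and 15.9 CPM in pIR (log2 fold change -1.06 ± 0.24, edgeR adjusted p = 0.031), and Fxyd4, a regulator of the sodium pump, at 71.8, 115 and 57.4 CPM in pWT and 29.7 and 37.2 CPM in pIR (log2 fold change -1.24 ± 0.29, edgeR adjusted p = 0.0354). Upk1b and Krt18, an uroplakin and a keratin of duct and pelvis epithelium, differed by -1.46 ± 0.36 and -0.89 ± 0.21 on the log2 scale, with edgeR adjusted p of 0.0415 and 0.0393. Aqp2, the vasopressin-regulated water channel, stood at 859.7, 1115 and 593 CPM in pWT and 456 and 559.7 CPM in pIR and did not pass (log2 fold change -0.71 ± 0.25, edgeR adjusted p = 0.102). The 4 falls were called in no fit without pWT 1, pIR 1 or pIR 2, where the list had 0 calls, and without pWT 3 the list had 8. Without pWT 2 Upk1b was lost as well (0.0524).

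**Figure D2:**
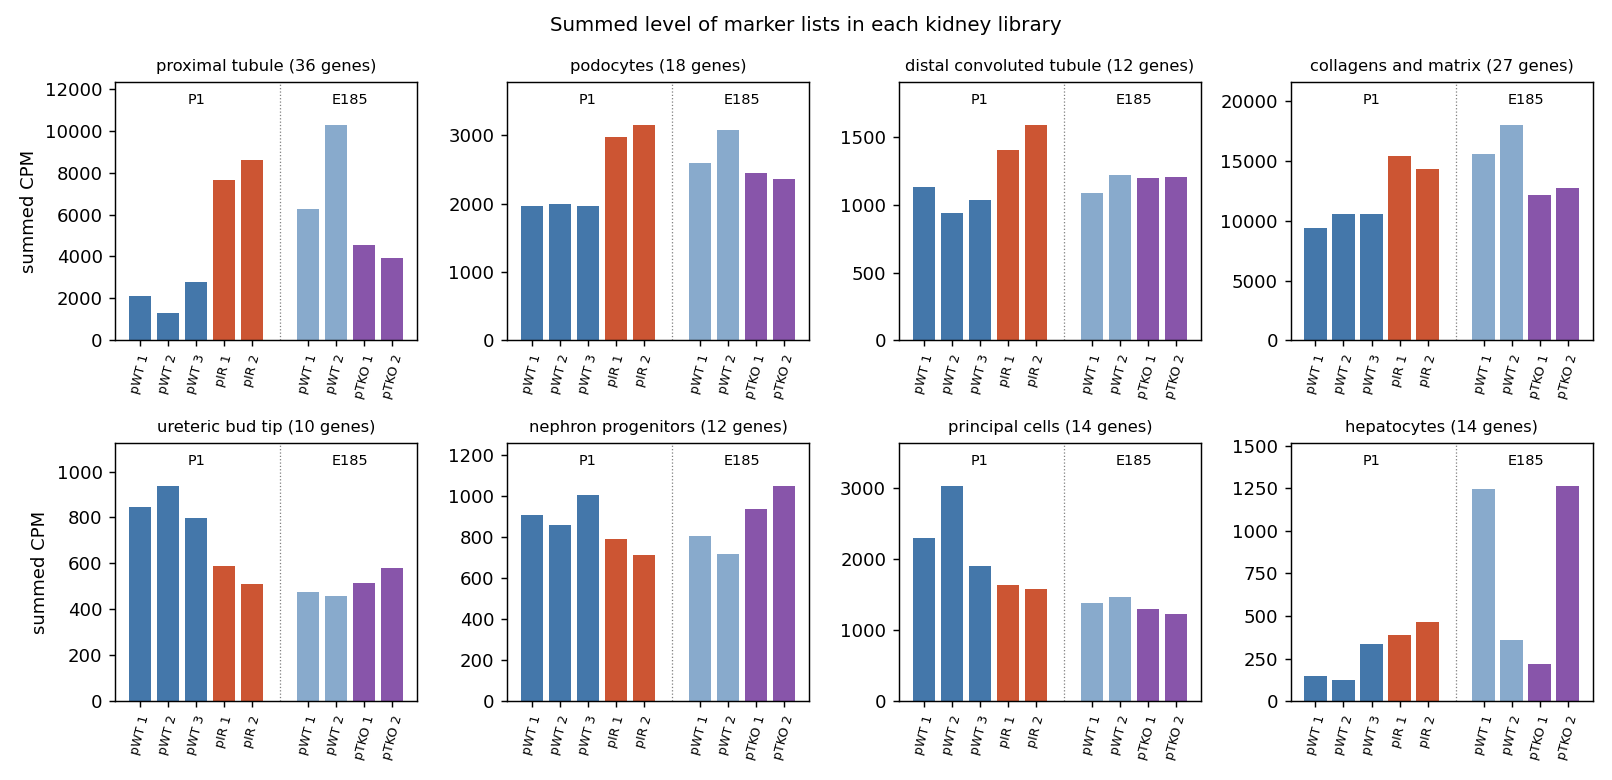
Summed CPM of 8 marker lists in each kidney library, with P1 pWT in blue, P1 pIR in red, E185 pWT in light blue and E185 pTKO in purple. Proximal tubule genes sum to 7665 and 8590 CPM in P1 pIR against 1310 to 2758 CPM in P1 pWT, and the ureteric bud tip sum is lower in P1 pIR than in P1 pWT.

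Genes of the zone where nephrons form were lower. At the ureteric bud tip 0 of 10 genes rose and 6 fell (median -0.67), and the summed level was 844, 937 and 797 CPM in pWT and 588 and 511 CPM in pIR. Ret, the receptor that drives branching (chromosome 6, 118151745 to 118197718), stood at 104, 132 and 94.1 CPM in pWT and 58.4 and 48.0 CPM in pIR (log2 fold change -1.0 ± 0.17, edgeR adjusted p = 0.0143). Its co-receptor Gfra1 (chromosome 19, 58235604 to 58455909) stood at 219, 225 and 209.9 CPM in pWT and 135 and 130.5 CPM in pIR (log2 fold change -0.67 ± 0.097, edgeR adjusted p = 0.0094), and Etv4, a factor downstream of RET, at 120.1, 129 and 113 CPM in pWT and 76.3 and 64.7 CPM in pIR (log2 fold change -0.73 ± 0.12, edgeR adjusted p = 0.0124). Sox9 and Slco4c1 differed by -0.68 ± 0.14 and -1.01 ± 0.23 on the log2 scale, with edgeR adjusted p of 0.0253 and 0.0332. Every pIR library was below every pWT library for these 5 genes. Without pWT 1 none of the 5 passed, with adjusted p from 0.0626 for Ret to 0.133 for Slco4c1. Ret was also lost without pIR 1 (0.0533) and Sox9 without pWT 2 (0.0525). Slco4c1 was lost without pIR 1 (0.153) or pIR 2 (0.0744). The count for the list was 5 without pWT 2, 7 without pWT 3, 3 without pIR 1 and 4 without pIR 2.

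The nephron progenitors that surround those tips showed smaller falls. Of 11 tested genes 0 rose and 4 fell (median -0.38), and 1 fell with all P1 tissues in the fit. Six2, which keeps progenitors undifferentiated, stood at 74.8, 75.2 and 93.5 CPM in pWT and 58.6 and 45.7 CPM in pIR (log2 fold change -0.59 ± 0.15, edgeR adjusted p = 0.0444), and Eya1, its partner, at 76.3, 67.1 and 65.5 CPM in pWT and 38.3 and 39.8 CPM in pIR (log2 fold change -0.79 ± 0.12, edgeR adjusted p = 0.0104). Cited1 stood at 32.8, 41.6 and 38.1 CPM in pWT and 23.8 and 18.7 CPM in pIR (log2 fold change -0.78 ± 0.16, edgeR adjusted p = 0.0267) and Crym at 31.5, 48.3 and 35.1 CPM in pWT and 18.6 and 19 CPM in pIR (log2 fold change -0.98 ± 0.20, edgeR adjusted p = 0.0245). The pIR libraries were below the pWT libraries for all 4, by less than 2-fold. Among 12 genes of committed precursors Wnt4, the signal that turns progenitors into epithelium, and Tmem100 fell, and neither did with all P1 tissues in the fit. Wnt4 stood at 277, 301 and 281 CPM in pWT and 183 and 183 CPM in pIR (log2 fold change -0.60 ± 0.099, edgeR adjusted p = 0.0134) and Tmem100 at 41.9, 34.8 and 49.9 CPM in pWT and 28.2 and 23.5 CPM in pIR (log2 fold change -0.66 ± 0.17, edgeR adjusted p = 0.0478). Of 24 signalling genes of nephron formation 0 rose and 4 fell, namely Ret, Gfra1, Wnt4 and Fgf10 (Fgf10 log2 fold change -0.85 ± 0.22, edgeR adjusted p = 0.0454). Calls of progenitor and precursor genes were lost easily: Six2 without pWT 1 (0.114), pWT 2 (0.0644), pWT 3 (0.0672), pIR 1 (0.0782) or pIR 2 (0.121), Eya1 without pWT 1 (0.0639) or pIR 1 (0.0533), Cited1 without pWT 1 (0.0733), pWT 2 (0.0544), pIR 1 (0.0622) or pIR 2 (0.0734), Crym without pWT 1 (0.0575), pIR 1 (0.129) or pIR 2 (0.0625), Wnt4 without pWT 1 (0.0717) or pIR 1 (0.0597), Tmem100 without pWT 1 (0.147), pWT 3 (0.0723), pIR 1 (0.125) or pIR 2 (0.134) and Fgf10 without pWT 1 (0.146), pWT 3 (0.0705), pIR 1 (0.233) or pIR 2 (0.0536).

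**Figure D3:**
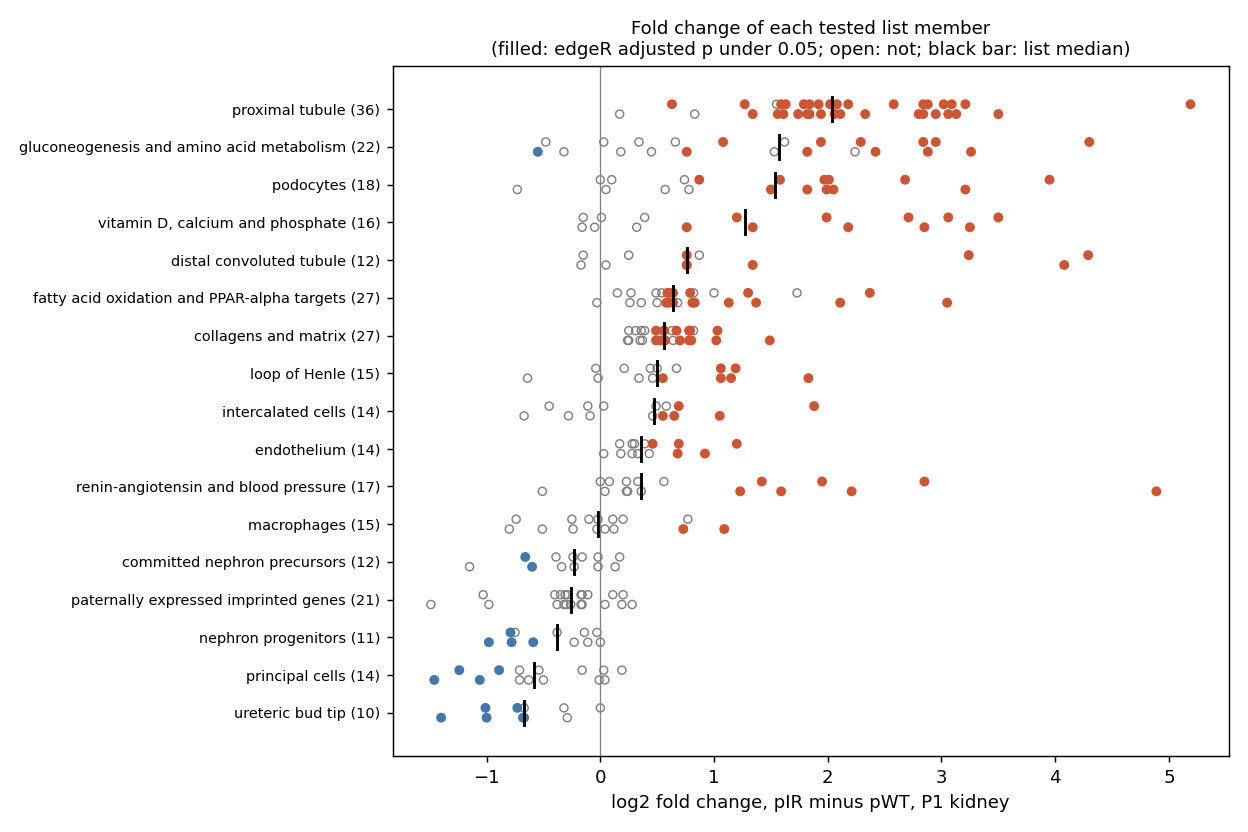
Log2 fold change, pIR minus pWT in P1 kidney, of each tested member of 17 lists (the number tested in brackets), with filled points past an adjusted p of 0.05, red for higher and blue for lower, and a black bar at the list's median. The medians run from 2.04 for proximal tubule genes to -0.67 for ureteric bud tip genes.

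Matrix and vessel genes were higher. Of 27 collagen and matrix genes 16 rose and 0 fell (median 0.56), and 8 rose with all P1 tissues in the fit. Col1a1, the main chain of fibrillar collagen I, stood at 735, 810.0 and 818 CPM in pWT and 1660 and 1456 CPM in pIR (log2 fold change 1.03 ± 0.10, edgeR adjusted p = 0.00335), and Col14a1 at 42.7, 34.8 and 50.9 CPM in pWT and 101 and 131 CPM in pIR (log2 fold change 1.49 ± 0.17, edgeR adjusted p = 0.00566). Both kept their calls without any 1 library. Col4a1 and Col4a2 of basement membranes, a pair transcribed from one shared promoter, differed by 0.67 ± 0.10 and 0.80 ± 0.10 on the log2 scale, with edgeR adjusted p of 0.0106 and 0.00681. Of 14 endothelial genes 5 rose and 0 fell (median 0.36). Ehd3, which marks the glomerular endothelium, stood at 42.6, 37.9 and 41.9 CPM in pWT and 101 and 79.7 CPM in pIR (log2 fold change 1.2 ± 0.13, edgeR adjusted p = 0.00412), Cdh5 at 141, 130.4 and 163 CPM in pWT and 309.9 and 221 CPM in pIR (log2 fold change 0.92 ± 0.15, edgeR adjusted p = 0.0137) and Pecam1 at 146, 147 and 145 CPM in pWT and 236 and 216 CPM in pIR (log2 fold change 0.68 ± 0.093, edgeR adjusted p = 0.00828). Calls were lost for Col4a1 without pWT 1 (0.0736) or pIR 1 (0.0502), Col4a2 without pWT 1 (0.0559), Cdh5 without pWT 1 (0.0737) or pIR 1 (0.0665) and Pecam1 without pWT 1 (0.0609). The matrix list had 2 genes called as higher without pWT 1 and 6 without pIR 1, and the endothelial list 1 and 2.

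Markers of other cells were read as well. Among 15 macrophage genes Csf1r and Cd74 rose (13.3%, against 7.58% of all genes, log2 fold change 0.73 ± 0.13, edgeR adjusted p = 0.0193; log2 fold change 1.09 ± 0.18, edgeR adjusted p = 0.0138), and the list's summed level overlapped at 155 to 190.4 CPM in pWT and 179.8 and 184.6 CPM in pIR. Of 8 neutrophil genes tested 1 fell (12.5%, against 3.06%), Lcn2, which is also made by injured tubules and collecting duct (20.5, 30.0 and 21 CPM in pWT and 9.77 and 10.3 CPM in pIR, log2 fold change -1.20 ± 0.21, edgeR adjusted p = 0.0169). None of 6 haemoglobin genes passed in edgeR (2 at an unadjusted p under 0.05, and 2 calls by DESeq2), and they summed to 929 to 1088 CPM in pWT and to 878 and 1284 CPM in pIR. The adrenal gland lies against the kidney. Its cortex genes gave 0 calls of 8 in edgeR (2 at an unadjusted p under 0.05, and 1 call by DESeq2), with sums of 67.8 to 87.2 CPM in pWT and 65.3 and 73.0 CPM in pIR, and of 5 genes of medulla and neurons 1 rose and 1 fell. Stmn2, a microtubule regulator of neurons, stood at 2.16, 1.17 and 2.02 CPM in pWT and 4.55 and 4.90 CPM in pIR (log2 fold change 1.45 ± 0.32, edgeR adjusted p = 0.0295), and Pnmt, which makes adrenaline, stood at 4.87, 4.92 and 3.06 CPM in pWT and 0.860 and 0.583 CPM in pIR (log2 fold change -2.51 ± 0.39, edgeR adjusted p = 0.0111). The call did not hold for Csf1r without pWT 1 (0.0559) or pIR 1 (0.0967), Cd74 without pWT 1 (0.0742) or pIR 1 (0.0935), Lcn2 without pWT 1 (0.0559) or pIR 1 (0.101), Pnmt without pWT 1 (0.0569) or pIR 1 (0.058) and Afp without pWT 1 (0.0529).

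Imprinted genes were read because the haploid cells carry a paternal genome whose methylation the series is about. Imprinted genes are transcribed from the copy of 1 parent, under the control of regions methylated in sperm or oocyte. The lists name genes by imprinting reported elsewhere, and which copy was transcribed in these kidneys was not measured. In the Dlk1-Meg3 cluster on chromosome 12, which is methylated on the paternal copy, the genes moved in both directions. Of the coding genes expressed from the paternal copy, Rtl1 and Dlk1 were higher. Dio3 did not pass the filter on low counts, and its groups overlapped (0.308, 0.410 and 0.437 CPM in pWT and 0.430 and 0.175 CPM in pIR). Rtl1 (chromosome 12, 109589193 to 109600330) stood at 1.42, 0.410 and 1.75 CPM in pWT and 6.51 and 8.17 CPM in pIR (log2 fold change 2.66 ± 0.45, edgeR adjusted p = 0.0144) and Dlk1 (chromosome 12, 109452823 to 109463336) at 12.3, 8.55 and 13.9 CPM in pWT and 29.2 and 22.2 CPM in pIR (log2 fold change 1.2 ± 0.22, edgeR adjusted p = 0.0179). The non-coding RNAs expressed from the maternal copy were lower. Meg3 (chromosome 12, 109541001 to 109571726) stood at 45.8, 52.3 and 44.2 CPM in pWT and 30.9 and 32.7 CPM in pIR (log2 fold change -0.53 ± 0.13, edgeR adjusted p = 0.0419), Rian at 29.5, 40.5 and 37.3 CPM in pWT and 18.2 and 22.8 CPM in pIR (log2 fold change -0.76 ± 0.18, edgeR adjusted p = 0.0398) and Mirg at 1.91, 1.41 and 2.19 CPM in pWT and 0.983 and 0.700 CPM in pIR (log2 fold change -1.07 ± 0.40, edgeR adjusted p = 0.118), which did not pass. Part of Rtl1 lies opposite a maternal transcript, so without a stated strand its reads may not be its own. The groups did not overlap for any of these 5, but the calls were lost for Rtl1 without pWT 1 (0.0633), pIR 1 (0.0694) or pIR 2 (0.0512), Dlk1 without pWT 1 (0.0746) or pIR 1 (0.119), Meg3 without pWT 1 (0.132), pWT 2 (0.0948), pIR 1 (0.171) or pIR 2 (0.0626) and Rian without pWT 1 (0.0733), pWT 2 (0.0838) or pIR 1 (0.202).

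At the H19-Igf2 cluster neither gene passed. H19, the maternal non-coding RNA, stood at 1713, 1082 and 1551 CPM in pWT and 1756 and 1404 CPM in pIR (log2 fold change 0.17 ± 0.18, edgeR adjusted p = 0.553), and Igf2, the paternal growth factor, at 1058, 841 and 939 CPM in pWT and 1263 and 1114 CPM in pIR (log2 fold change 0.38 ± 0.12, edgeR adjusted p = 0.0759). Zdbf2, of a further paternally methylated cluster, stood at 8.33, 4.62 and 6.67 CPM in pWT and 3.32 and 4.67 CPM in pIR (log2 fold change -0.66 ± 0.31, edgeR adjusted p = 0.189). In clusters methylated on the maternal copy, 0 of 21 genes expressed from the paternal copy were called by edgeR or by DESeq2 (median -0.26, 16 below 0, 3 at an unadjusted edgeR p under 0.05). Mest stood at 1214, 1099 and 1111 CPM in pWT and 988 and 861 CPM in pIR (log2 fold change -0.26 ± 0.10, edgeR adjusted p = 0.136) and Plagl1 at 155, 163 and 137 CPM in pWT and 121 and 115 CPM in pIR (log2 fold change -0.31 ± 0.11, edgeR adjusted p = 0.11). Of 20 genes listed as expressed from the maternal copy 2 rose and 2 fell, where 7.58% of all genes rose and 3.06% fell. Whether these counts exceed those of all genes was not tested. Those that rose were carriers of the Slc22a family, Slc22a2 (10.4, 5.44 and 17.4 CPM in pWT and 68.9 and 78.9 CPM in pIR, log2 fold change 2.79 ± 0.36, edgeR adjusted p = 0.00687) and Slc22a18 (5.92, 4.62 and 5.46 CPM in pWT and 11.1 and 13.1 CPM in pIR, log2 fold change 1.23 ± 0.20, edgeR adjusted p = 0.0124). Slc22a2 is a carrier of the proximal tubule as well. Asb4 and Copg2 fell (log2 fold change -0.89 ± 0.19, edgeR adjusted p = 0.0263; log2 fold change -0.45 ± 0.10, edgeR adjusted p = 0.0345). Of 13 genes imprinted through histone methylation 5 rose (38.5%, against 7.58% of all genes), a count that became 0 without pWT 1, 2 without pWT 2, 4 without pWT 3 and 1 without pIR 1 or pIR 2. Whether the genes of that list are imprinted in newborn kidney was not measured. Among the 5 was Epas1, a hypoxia-inducible factor (122, 127 and 129 CPM in pWT and 195 and 191 CPM in pIR, log2 fold change 0.66 ± 0.091, edgeR adjusted p = 0.00859). With a library left out the test no longer passed for Slc22a18 without pWT 1 (0.0575), Asb4 without pWT 1 (0.0965), pWT 2 (0.0517), pIR 1 (0.0786) or pIR 2 (0.0752), Copg2 without pWT 1 (0.157), pWT 2 (0.0772) or pIR 1 (0.133) and Epas1 without pWT 1 (0.0633).

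Of 10 genes of the DNA methylation machinery 0 rose and 1 fell, against 3.06% of all genes that fell. Dnmt3a, a de novo methyltransferase, stood at 306, 299 and 305 CPM in pWT and 303 and 319 CPM in pIR (log2 fold change 0.08 ± 0.093, edgeR adjusted p = 0.572), with overlapping groups. The gene that fell was Zfp57, whose product protects imprints from demethylation (54.1, 57.4 and 51.8 CPM in pWT and 36.2 and 33.5 CPM in pIR, log2 fold change -0.60 ± 0.12, edgeR adjusted p = 0.0216), and its call was lost without pWT 1 (0.0994), pIR 1 (0.0733) or pIR 2 (0.0501). Of 33 germ cell genes kept methylated at their promoters in body cells, 11 passed the filter, and edgeR called none of the 11 (median -0.14), with 5 at an unadjusted p under 0.05 and 2 calls by DESeq2.

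Division, stress and clock genes were read against the share of all genes, 7.58% higher and 3.06% lower. Of 26 mitotic genes Aurka and Plk1 rose and 0 fell (log2 fold change 0.80 ± 0.17, edgeR adjusted p = 0.0267; log2 fold change 0.88 ± 0.17, edgeR adjusted p = 0.0226). Of 20 targets of p53 Cdkn1a rose while Bax and Phlda3 fell (log2 fold change 0.75 ± 0.15, edgeR adjusted p = 0.0216; log2 fold change -0.55 ± 0.12, edgeR adjusted p = 0.0307; log2 fold change -0.70 ± 0.14, edgeR adjusted p = 0.0222). Of 25 hypoxia and glycolysis genes 2 rose and 1 fell, with the largest change in Ndrg1 (183, 132 and 146 CPM in pWT and 408 and 415 CPM in pIR, log2 fold change 1.47 ± 0.14, edgeR adjusted p = 0.00335). Of 18 clock genes 2 rose, among them Usp2 (log2 fold change 0.96 ± 0.12, edgeR adjusted p = 0.00593), and of 20 cholesterol synthesis genes 2 rose, among them Srebf2, which drives their transcription (log2 fold change 0.52 ± 0.12, edgeR adjusted p = 0.0359). Of 18 genes of tubular injury Spp1, osteopontin, rose (log2 fold change 0.92 ± 0.19, edgeR adjusted p = 0.0257) and 4 fell (22.2%), namely Lcn2, Krt18, Krt19 and Sox9, all 4 also given with other lists or beside the largest falls. Of 23 interferon genes 1 rose and 1 fell. Immediate early, glucocorticoid and protein folding genes gave 2 of 23, 2 of 18 and 2 of 22 higher, and 0, 2 and 0 lower. The shares called as higher in these 10 lists ran from 4.35% to 11.1% and as lower from 0 to 22.2%. Without pWT 1 each of the 10 lists had 0 or 1 calls. Ndrg1 and Usp2 kept their calls without any 1 library. The others were lost: Aurka without pWT 1 (0.0845), pWT 2 (0.0588) or pIR 1 (0.139), Plk1 without pWT 1 (0.0828) or pIR 1 (0.107), Cdkn1a without pWT 1 (0.0643) or pIR 1 (0.112), Bax without pWT 1 (0.111), pWT 2 (0.0704), pIR 1 (0.102) or pIR 2 (0.0667), Phlda3 without pWT 1 (0.0797) or pIR 1 (0.106), Srebf2 without pWT 1 (0.132), pWT 2 (0.0754) or pIR 1 (0.172) and Spp1 without pWT 1 (0.0994), pIR 1 (0.0796) or pIR 2 (0.0794).

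Further genes were among the largest rises. Acmsd, an enzyme of tryptophan breakdown, stood at 0.863, 0.585 and 0.984 CPM in pWT and 7.13 and 13.6 CPM in pIR (log2 fold change 3.71 ± 0.37, edgeR adjusted p = 0.00335), and Rdh19, a dehydrogenase of the retinol family, at 3.58, 2.46 and 6.56 CPM in pWT and 38.4 and 60.7 CPM in pIR (log2 fold change 3.60 ± 0.36, edgeR adjusted p = 0.00335). Slc22a22 and Angptl7 differed by 4.19 ± 0.64 and 4.01 ± 0.50 on the log2 scale, with edgeR adjusted p of 0.0107 and 0.00639, from under 1 CPM in every pWT library. Slc22a22 lost its call without pWT 1 (0.0569) or pIR 1 (0.0516) and Angptl7 without pIR 1 (0.0532).

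The largest falls were in genes of several kinds. Crisp1, a secreted protein, stood at 9.0, 8.72 and 3.61 CPM in pWT and 1.6 and 0.992 CPM in pIR (log2 fold change -2.41 ± 0.48, edgeR adjusted p = 0.0227), and Sprr2f, of the cornified envelope of epithelia, at 13.4, 16.2 and 6.34 CPM in pWT and 2.58 and 2.57 CPM in pIR (log2 fold change -2.17 ± 0.41, edgeR adjusted p = 0.0202). Gsdmc3 and Gsdmc2, gasdermins of near-identical sequence among which reads could be split, stood at 47.1, 104 and 36.8 CPM in pWT and 12.6 and 17.6 CPM in pIR and at 46.4, 112 and 39.0 CPM in pWT and 14.3 and 19.5 CPM in pIR (log2 fold change -2.01 ± 0.44, edgeR adjusted p = 0.0307; log2 fold change -1.91 ± 0.46, edgeR adjusted p = 0.038). S100a6, a calcium-binding protein, stood at 70.3, 167 and 86.0 CPM in pWT and 26.0 and 43.1 CPM in pIR (log2 fold change -1.59 ± 0.39, edgeR adjusted p = 0.0408), and Krt19, a keratin of duct epithelium, at 70.4, 106 and 60.6 CPM in pWT and 41.8 and 33.4 CPM in pIR (log2 fold change -1.03 ± 0.24, edgeR adjusted p = 0.0366). For all of these except Krt19, groups without overlap were required by the rule that chose the largest falls. Krt19, named from a list, also lay lower in every pIR library than in any pWT library. Tlr4, the endotoxin receptor, Styk1, Grik2, Panct2, Rbm46, Rpl22l1 and Ccdc73 had log2 fold changes between -1.61 and -1.93. Without pWT 1 none of these 13 genes passed, with adjusted p from 0.0521 for Tlr4 to 0.135 for Ccdc73. Without pIR 1 Panct2 alone passed. Without pIR 2 Crisp1, Sprr2f, Gsdmc3, Gsdmc2, S100a6, Krt19 and Grik2 did not pass, and without pWT 2 Rpl22l1 and Ccdc73 did not.

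Called genes were spread over all chromosomes. The share that rose ran from 4.54% of 529 genes on X to 9.6% of 1312 on chromosome 11, and the share that fell from 1.98% of 504 on chromosome 16 to 4.56% of 1008 on chromosome 4. Genes next to each other that were called in the same direction formed 28 stretches of at least 4 called genes, 27 of them of genes that rose. On chromosome 1, from 88055388 to 90843971, 12 of 18 tested genes rose, and 8 of the 12 belonged to the Ugt1a cluster of glucuronosyltransferases, whose members share exons and so reads. On chromosome 11, from 94936224 to 95842476, 12 of 16 rose, beginning with Col1a1. On chromosome 4 a stretch had 8 of 15 higher and on chromosome 18 one had 7 of 11. On chromosome 19, from 7673061 to 8723369, 6 of 10 rose, 5 of them organic anion carriers of the Slc22a family. The stretch of genes that fell lay on chromosome 4, where from 117550365 to 117892032, 6 of 7 fell, from Eri3 to Dph2. The gain in pIR also moved with base composition: across 15903 genes, which are not independent replicates, the Spearman correlation of the log2 fold change with transcript GC content was 0.256 and with transcript length 0.080. With the trend on GC content removed 2188 genes were called, 1685 of them higher.

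Earlier results on these tissues had named 8 genes, of which 7 passed the filter in kidney. Nmnat1, the nuclear enzyme of NAD synthesis (chromosome 4, 149467572 to 149485202), stood at 34.2, 36.6 and 39.2 CPM in pWT and 12.5 and 12.7 CPM in pIR (log2 fold change -1.5 ± 0.14, edgeR adjusted p = 0.00335). It kept its call without any 1 library. Sectm1b stood at 0.185, 0.176 and 0.164 CPM in pWT and 0.983 and 1.69 CPM in pIR (log2 fold change 2.94 ± 0.52, edgeR adjusted p = 0.0169), and its call was lost without pWT 1 (0.0695), pIR 1 (0.0676) or pIR 2 (0.0825). Its neighbour Sectm1a stood at 0.617, 5.91 and 7.43 CPM in pWT and 0.676 and 0.233 CPM in pIR (log2 fold change -3.31 ± 1.00, edgeR adjusted p = 0.0746), with pWT 1 at the level of pIR. Slc16a3, a lactate exporter, stood at 11.1, 14.4 and 10 CPM in pWT and 6.82 and 6.18 CPM in pIR (log2 fold change -0.82 ± 0.22, edgeR adjusted p = 0.0527). Rbp7 and Selenbp2 differed by -1.68 ± 0.51 and -1.54 ± 0.43 on the log2 scale and did not pass, with edgeR adjusted p of 0.0729 and 0.0562. Dlgap1 stood at 6.85, 8.72 and 6.01 CPM in pWT and 5.96 and 6.01 CPM in pIR (log2 fold change -0.22 ± 0.23, edgeR adjusted p = 0.553).

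Heart, liver and lung of the same age were set beside the kidney. A joint fit tested, for each of 17862 genes, whether the pIR difference in kidney departed from the mean of heart, liver and lung, and 779 genes did (4.36%), 524 with a higher value in kidney (2.93%) and 255 with a lower one (1.43%). Gfra1 led them: its log2 fold change was -0.67 in kidney and 1.57, 1.49 and 0.43 in heart, liver and lung (difference -1.82 ± 0.16, edgeR adjusted p = 3.08e-05). Ret fell in kidney and stood at 1.65, 0.59 and -0.29 in the others (difference -1.64 ± 0.33, edgeR adjusted p = 0.0101), and 5 of the 10 ureteric bud tip genes had a lower value in kidney by this test. Podxl departed upward (-0.46, 0.57 and -0.50 in the others, difference 2.19 ± 0.27, edgeR adjusted p = 0.000224). So did Pth1r (difference 1.84 ± 0.21, edgeR adjusted p = 9.62e-05) and Ace (difference 2.00 ± 0.33, edgeR adjusted p = 0.00277), and 13 of the 36 proximal tubule genes did so. Pcx rose in liver as well, with -0.18, 1.76 and -0.39, and its value in kidney still exceeded the mean of the 3 tissues (difference 2.04 ± 0.21, edgeR adjusted p = 5.85e-05). The count of such genes was 438 without kidney library pWT 1, 443 without pWT 2, 269 without pIR 1 and 461 without pIR 2.

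Some kidney changes were shared. Nmnat1 fell in all 4 tissues, by -1.42, -1.34 and -1.99 on the log2 scale in heart, liver and lung, and its value in kidney was not shown to depart from their mean (difference 0.10 ± 0.14, edgeR adjusted p = 0.763). Cpt2 was higher in liver (1.96) and close to 0 in heart and lung (0.13 and -0.01; difference 0.46 ± 0.16, edgeR adjusted p = 0.122). Col1a1 was higher in heart (1.38) and did not pass in lung (1.06) or liver (-0.17). Dlgap1, which did not pass in kidney, rose by 8.71 in heart (difference -4.11 ± 0.39, edgeR adjusted p = 3.19e-05). Rtl1 and Dlk1 departed upward in kidney (differences 3.77 ± 0.63, edgeR adjusted p = 0.00277 and 1.15 ± 0.26, edgeR adjusted p = 0.0167). Of the 1230 genes that rose in kidney, 545 rose in liver. These were 44.3% of the kidney genes, where 18.8% of all genes rose in liver, and 16.2% of the liver genes, where 7.58% of all genes rose in kidney. In heart 249 did so (20.2% and 16.6%, backgrounds 8.41% and 7.58%), and in lung 39 (3.17% and 39.0%, backgrounds 0.560% and 7.58%). Of the 497 that fell, 215 fell in liver (43.3% and 7.63%, backgrounds 15.8% and 3.06%), 104 in heart (20.9% and 9.23%, backgrounds 6.31% and 3.06%) and 17 in lung (3.42% and 35.4%, backgrounds 0.269% and 3.06%). Whether tissues with the same replicate number came from 1 animal is not stated.

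**Figure D4:**
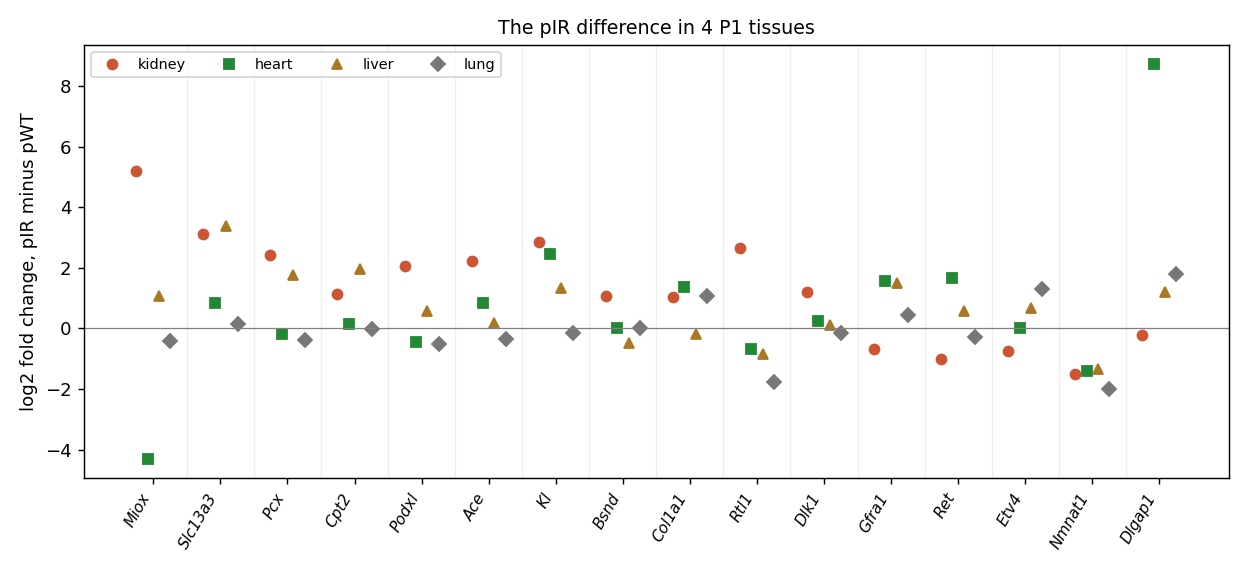
Log2 fold change, pIR minus pWT, of 16 genes in 4 P1 tissues (circles for kidney, squares for heart, triangles for liver, diamonds for lung), without error bars. Nmnat1 lies below 0 in all 4, Gfra1 and Ret lie below 0 in kidney and above it in heart and liver, and the value of Miox in heart (-4.29) is of a gene that did not pass there (edgeR adjusted p = 0.107).

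In the kidneys sampled before birth most of these genes had a fitted value of the other sign, with no gene past the test. In E185 pTKO kidneys 0 of 16595 genes passed in edgeR's test (0%), with 2376 at an unadjusted p under 0.05, and DESeq2's Wald test called 304, so values are given without calls. On simulated data this E185 fit recovered a 2-fold change for 2% and a 4-fold change for 42% of genes, with 13.7% of calls false. The absence of calls therefore says little about changes of that size. Without E185 pWT 1 edgeR called 5327 genes, and without E185 pWT 2 945. Across the 15972 genes tested at both stages the Spearman correlation of the log2 fold changes was -0.53, over genes, which are not independent replicates. E185 pWT 2 stood apart in 2 lists. Xist and Y-linked genes summed to 1456 and 106 CPM in E185 pWT 1 and 2 and to 1895 and 2749 CPM in pTKO. This sum joins a transcript of female cells with genes of male cells, so it does not give the sex of a library. Whether E185 pWT 2 differs in sex from the other E185 libraries was not read here. Macrophage genes summed to 177 and 468 CPM in E185 pWT and to 196 and 179 CPM in pTKO. The part of E185 pWT 2, or of sex, in the correlation and in the signs that follow was not tested. Of 1223 genes that rose in pIR at P1, 1096 (89.6%) had a log2 fold change below 0 in pTKO at E185 (50.4% of all genes), with a median of -0.46. Of 493 that fell, 77 (15.6%) were below 0, with a median of 0.48. The 36 proximal tubule genes had a median of -0.97, with 35 below 0, and summed to 6267 and 10260 CPM in E185 pWT and to 4525 and 3925 CPM in pTKO. The E185 pWT sums were thus above the P1 pWT sums of 1310 to 2758 CPM, in a separate experiment with deeper libraries (22.2 to 24.8 M counts). Miox stood at 18.2 and 24.5 CPM in E185 pWT and at 5.72 and 3.91 CPM in pTKO. Podocyte genes had a median of -0.41, collagen and matrix genes -0.41, ureteric bud tip genes 0.21 and nephron progenitor genes 0.33. Meg3 and Rian stood higher in pTKO, Meg3 at 85.2 and 95.4 CPM in pWT and 323 and 272 CPM in pTKO, and Rian at 59.4 and 51.7 CPM against 188 and 123 CPM, while both fell in pIR at P1. The genotypes, ages and experiments differ between these data sets and their parts in the difference cannot be told apart.

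**Figure D5:**
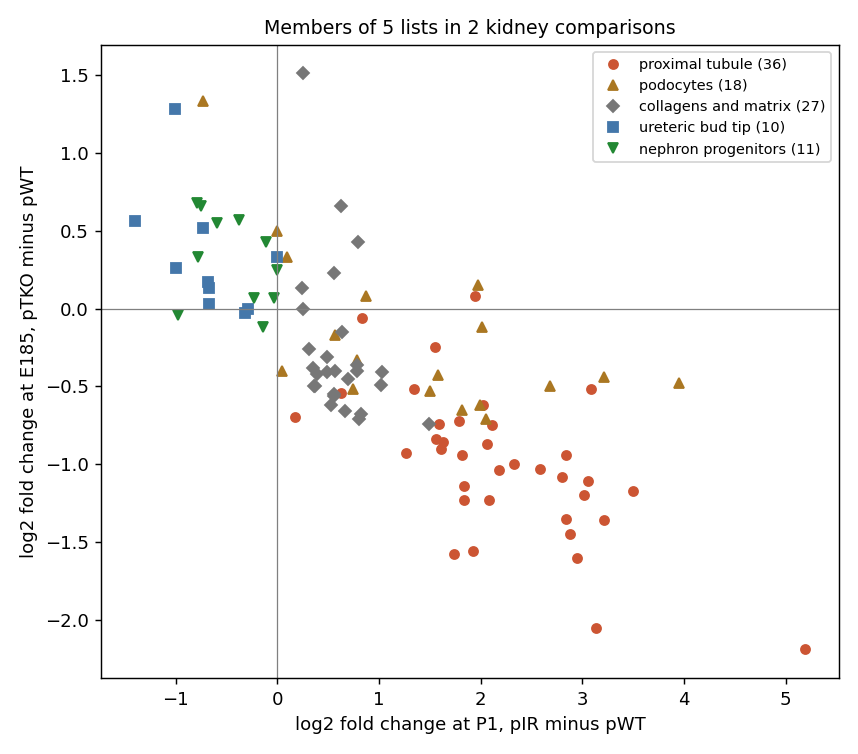
Log2 fold change of list members in P1 kidney (pIR minus pWT, x axis) and E185 kidney (pTKO minus pWT, y axis), coloured by list with the number of genes in brackets. Most proximal tubule genes lie right of 0 and below 0, and most ureteric bud tip and nephron progenitor genes lie left of 0 and above 0.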

How the data were processed

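Polyadenylated RNA was sequenced, and the table deposited by the authors holds raw read counts for each gene symbol. The submitters' processing notes name Trim Galore 0.6.6, HISAT2 2.1.0, the genome build mm10, featureCounts 1.6.4 and DESeq2. Per the labels' protocols, one kit selects poly(A) RNA and one serves very low input, and the kit behind each library was not given in the sources used here, nor is the handling of strand or of reads with several positions.

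Genes were kept by filterByExpr (minimum count 10), scaled by TMM and tested by edgeR 4.0.16 in R 4.3.3 with its quasi-likelihood F test, with Benjamini-Hochberg adjustment and a threshold of 0.05. A log2 fold change over the square root of its F gave the standard error. CPM use library totals, so their ratio can differ from the fitted fold. Tables were made in Python 3.11.15 with pandas 2.3.3 and scipy 1.17.1. The P1 tissues shared a joint fit of 20 libraries, and E185 kidney was fitted alone, with 2 libraries in each group. Positions, GC content and length came from GENCODE M21 (mm10), and promoters from RefSeq (GRCm38.p6, the same assembly). Of all symbols, 1084 shared their counts with another symbol in all 20 P1 libraries, 6 of them called (pairs that differ by a count in 1 library are not included). Alternatives were median-of-ratios scaling, DESeq2 1.42.0, no filter, the replicate number as a block, all P1 tissues in the fit, no haemoglobin genes, trends on GC content or length removed, and each library left out. On simulated data a 2-fold change was recovered for 70.0% and a 4-fold change for 86.0% of genes in the P1 kidney fit, with 7.69% of calls false.

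The members and the 47 gene lists were chosen with earlier results of these data known. Genes were named by rule: the 12 largest rises and 12 largest falls among called genes (at least 5 CPM in the higher group, groups not overlapping, no predicted or sex genes), up to 6 called genes with the smallest p per list, 8 genes of earlier work, the paternally methylated clusters, and the 6 genes whose kidney difference departed most from the other tissues. Slc34a1, Slc22a6, Slc3a1, Cubn, Lrp2, Hnf4a, Slc5a12, Aqp1, Keg1, Nphs1, Wt1, Umod, Slc12a1, Aqp2, Cyp27b1, Alb, Prodh and Ppara stand outside it, chosen after seeing their values. So were the motifs. Some genes that the rule selects are not reported here.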

Additional observations from a re-analysis of the deposited data

Results flagged for a closer look

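The pIR difference in kidney departed from the mean of heart, liver and lung for 779 genes by edgeR's test of that difference. The values that follow are log2 differences, kidney minus the mean of the other tissues, for named genes that passed. Where a gene is close to 0 counts in another tissue, as Miox in heart, the value rests on few counts.

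Genes of the proximal tubule and of metabolism lay higher in kidney, and so did genes of podocytes, vessels and the blood pressure system: Acmsd 4.28, Ass1 3.02, Pcx 2.04, Miox 6.41, Slc3a1 1.66, Slc13a3 1.69, Slc7a7 1.39, Cubn 1.80, G6pc 3.15, Gatm 2.56, Angptl4 1.22, Synpo 1.54, Mapt 2.21, Podxl 2.19, Ace 2.00, Pth1r 1.84, Cyp27b1 2.92, Wnk1 0.87, Ehd3 1.37, Pecam1 0.58, Rtl1 3.77, Dlk1 1.15, Ndrg1 1.07, Usp2 1.02, Aurka 0.93 and Slc4a1 1.17. Gm5424, whose counts equal those of Ass1 in 19 of 20 P1 libraries, has the value of Ass1. Lower in kidney were genes of the ureteric bud and its signals, among others: Gfra1 -1.82, Dlgap1 -4.11, Krt18 -1.15, Crym -1.59, Ret -1.64, Etv4 -1.37, Sox9 -0.83, Fgf10 -1.75 and Asb4 -1.18.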

How the results depend on the processing

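The count of genes called in P1 kidney was 2717 with DESeq2 and 2575 with the replicate number as a block, against 1727, and 150 to 2219 with 1 library left out. DESeq2 shared 1692 of the calls. Samples with the same number were not shown to be paired (correlation of their deviations -0.0848 for number 1 and -0.00236 for number 2). The count of genes whose kidney effect departed from the other tissues was 1493 with DESeq2, against 779, and 269 to 897 with 1 kidney library left out. In E185 kidney the 0 calls became 304 with DESeq2 and 0 to 5327 with 1 library left out (5327 without pWT 1, 945 without pWT 2), and stayed at 0 with the replicate block. There, deviations of samples with the same number correlated at -0.159. With 2 libraries in each group, crossed numbers give 0.159 by construction and add nothing. The crossed block, added after seeing the data, gave 0 as well. Other alternatives moved these counts by less than 1.5 times.

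Of the genes named, Aqp1 reversed its sign with the replicate block (-0.03) and without pWT 3 (-0.03), Wt1 without pWT 2 (-0.10) and Foxd1 without pIR 2 (-0.43). With 1 library left out these log2 fold changes ran from -0.03 to 0.38 for Aqp1, from -0.10 to 0.28 for Wt1 and from -0.43 to 0.50 for Foxd1, and none of the 3 was called. No other named gene changed its direction under any alternative run. With all P1 tissues in the fit Afp, Avpr2, Cdkn1a, Cited1, Copg2, Dcn, Etv4, Eya1, Fgf10, Fibin, Krt19, Meg3, Prodh, Six2, Slc4a1, Slco4c1, Tmem100, Tnni2, Upk1b and Wnt4 were not called, with edgeR adjusted p from 0.064 for Upk1b to 0.27 for Eya1. Calls also ended with DESeq2 for Hnf4a (0.0653) and Tnni2 (0.0629), with the replicate block for Fgf10, Fibin, Six2, Tmem100 and Tnni2, with the GC trend removed for Asb4, Copg2, Fgf10, Rian, Slco4c1 and Tmem100, with the length trend removed for Tmem100 and Tnni2, and with no filter for Tnni2. Leaving out pWT 1 or pIR 1 removed most of the calls that were lost. The cause was not tested. The comparison rests on 3 and 2 libraries of 16.2 to 18.3 M counts. How far counting error and the spread between libraries each limit the calls was not tested.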

Other observations

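Interstitial cells differed by gene. Of 15 genes of kidney stroma and fibroblasts 5 rose and 1 fell (median log2 fold change 0.25), and their summed level was 3646, 4112 and 4112 CPM in pWT and 5546 and 5343 CPM in pIR. Pdgfrb, the growth factor receptor of pericytes and mesangial cells, and Dcn, the matrix proteoglycan decorin, rose. Dcn differed by 0.79 ± 0.12 on the log2 scale (edgeR adjusted p = 0.0103). Pdgfrb stood at 138, 118 and 167 CPM in pWT and 249 and 199 CPM in pIR (log2 fold change 0.72 ± 0.15, edgeR adjusted p = 0.0282). The gene that fell was Fibin, a secreted protein, at 50.8, 44.6 and 59.2 CPM in pWT and 31.4 and 32.5 CPM in pIR (log2 fold change -0.64 ± 0.14, edgeR adjusted p = 0.0308). Of 12 mesangial, smooth muscle and renin cell genes Ren1 and Cspg4 rose and 0 fell, so the rise of Ren1 stood beside a list median of 0.20. Foxd1, the factor of the stromal progenitors, stood at 12.2, 9.95 and 13.4 CPM in pWT and 8.54 and 16.1 CPM in pIR and did not pass (log2 fold change 0.11 ± 0.28, edgeR adjusted p = 0.817). Calls were lost for Dcn without pWT 1 (0.0633) or pIR 1 (0.0557), Pdgfrb without pWT 1 (0.114), pWT 2 (0.0507) or pIR 1 (0.163) and Fibin without pWT 1 (0.113), pIR 1 (0.146) or pIR 2 (0.0599), all as edgeR adjusted p.

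Cells from outside the nephron were read against the 7.58% of all genes that rose and the 3.06% that fell. Of 9 erythroid genes other than globins 1 rose (11.1%), Slc4a1, the anion exchanger that intercalated cells also make (log2 fold change 0.64 ± 0.14, edgeR adjusted p = 0.0279), with all 9 above 0. It was lost without pWT 1 (0.12), pWT 2 (0.0641) or pIR 1 (0.142). Of 5 Schwann cell genes and 2 adipocyte genes 0 were called by edgeR or by DESeq2, with 1 and 0 at an unadjusted edgeR p under 0.05. Of 8 skeletal muscle genes 1 fell (12.5%), Tnni2 (log2 fold change -1.82 ± 0.48, edgeR adjusted p = 0.0488), and it was lost without pWT 1 (0.126), pWT 2 (0.0783), pWT 3 (0.0587), pIR 1 (0.141) or pIR 2 (0.181).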
